A study of Sus scrofa with 24 samples.

Results

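The 9 genes described here carry the pig symbols PLA2G4A, PLA2G6, PTGS1, PTGS2, PTGES, PTGES2, PTGES3, PTGDS and HPGDS, and were matched by Entrez identifier among the 38882 genes counted in the hippocampal libraries. They were chosen as enzymes that make prostaglandins, with PTGDS chosen by a measured value, its lower level in SGA than in AGA piglets on the HF diet, so that difference is given below as a description with no test. RNA was sequenced from 24 piglets of a PIC Camborough dam and PIC 359 sire cross, killed at 14 days, 6 per group (AGA CON, SGA CON, AGA HF, SGA HF). AGA piglets had a birth weight appropriate for gestational age and SGA piglets were small for gestational age. All were reared on formula, in which the fat was triglyceride oil for CON and hydrolyzed fat for HF. In the HF formula free fatty acids, monoacylglycerol and lecithin took the place of part of the triglyceride, and cholesterol was added. HF therefore does not stand for high fat. Each of 12 litters gave 1 AGA and 1 SGA piglet of the same sex to the same diet, and the litters came in 2 cohorts, with replicates 1 to 3 of each group in cohort 1 and replicates 4 to 6 in cohort 2.

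Prostaglandins are short-lived lipid signals made from arachidonic acid. Phospholipases such as PLA2G4A and PLA2G6 free fatty acids from membrane lipids, the cyclooxygenases PTGS1 and PTGS2 turn arachidonic acid into prostaglandin H, and terminal synthases convert this into prostaglandin E (PTGES, PTGES2, PTGES3) or prostaglandin D (PTGDS, HPGDS). In the brain PTGDS is best known from the meninges, the choroid plexus and oligodendrocytes, and the protein is a secreted lipocalin that also carries small lipophilic molecules in the cerebrospinal fluid, while prostaglandin D is known for promoting sleep.

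Reads assigned to listed genes ranged from 6017336 to 9284355 per library, so 3 counts corresponded to 0.323 to 0.499 CPM, read counts scaled to the normalized library total. All 7 matched markers of hippocampal neurons, led by CAMK2A, SLC17A7 and SNAP25, had a mean of at least 1 CPM, and their summed level was between 5848 and 9595 CPM. One SGA HF library, replicate 4, stood apart in its pituitary markers, which summed to 384 CPM against 27.1 to 44.1 CPM in the other libraries, and the PTGDS difference on HF is given with and without it.

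PTGDS had the highest median of the 9 genes, both in CPM and per kilobase, although its CPM range overlapped that of PLA2G6, at 71.2 to 157 CPM. Its level was between 136 and 289 CPM (median 175 CPM), which placed its mean at percentile 92.9 of the 16326 genes tested. Per kilobase of exon its median was 809 RPKM (CPM per kilobase), a level that rests on a short gene model of 216 bases of exon in 3 pieces, at positions 6749 to 8066 on the plus strand of an unplaced Sscrofa10.2 scaffold. This is shorter than the coding sequence of a lipocalin, so its RPKM is the least certain of the set, whereas comparisons of PTGDS between libraries do not depend on length. Its 1037 to 2135 counts per library gave a counting error of 2.74%, against a coefficient of variation of 18.4% over the libraries. HPGDS, the other prostaglandin D synthase, known from microglia, macrophages and mast cells, is annotated on chromosome 8 at 134662192 to 134692377 and had 0 counts in all 24 libraries. A count of 0 allows up to 0.323 to 0.499 CPM in a single library and 0.0167 CPM over all of them together, a limit that covers counting error only. Among mast cell markers, CPA3 also had no reads in any library, and KIT alone of 4 matched markers reached a mean of 1 CPM.

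**Figure D1:**
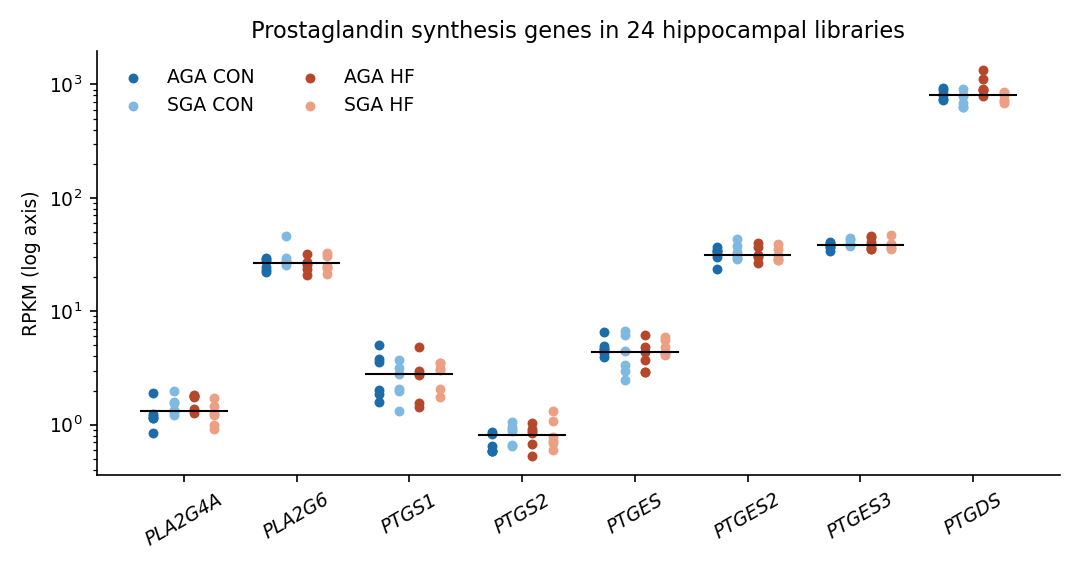
Level per kilobase of exon (RPKM, log axis) of the 8 detected genes in 24 libraries, with 1 point per library, colored by group, and a black line at the median over all libraries. The PTGDS points lie above those of every other gene, and the 3 genes PLA2G6, PTGES2 and PTGES3 form a middle tier; HPGDS, with 0 counts, is not drawn.

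The prostaglandin E synthases came next per kilobase. PTGES3, a cytosolic enzyme that also serves as a co-chaperone of HSP90 (chromosome 5, 23674707 to 23696337), had a median of 38.6 RPKM. PTGES2, a membrane-associated synthase (chromosome 1, 302576191 to 302582036), had a median of 31.3 RPKM. PTGES, the inducible microsomal enzyme (chromosome 1, 303779651 to 303792393), had a median of 4.39 RPKM and was below PTGES2 in 24 of 24 libraries. The phospholipases were as unequal. PLA2G6, a calcium-independent enzyme of membrane upkeep (chromosome 5, 6996400 to 7060421), had a median of 26.8 RPKM, and PLA2G4A, the calcium-dependent cytosolic enzyme that prefers arachidonic acid (chromosome 9, 140386385 to 140623416), had 1.33 RPKM. Both cyclooxygenases were low, with PTGS1, the constitutive enzyme (chromosome 1, 294753789 to 294779835), at a median of 2.79 RPKM and PTGS2, the inducible enzyme (chromosome 9, 140251667 to 140260362), at 0.807 RPKM. PTGS2 was the lower of the pair in all 24 libraries.

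The order PTGDS, PTGES3, PTGES2, PLA2G6, PTGES, PTGS1, PLA2G4A, PTGS2 held for most neighbours within single libraries. PTGDS exceeded PTGES3 in 24 of 24 libraries, PLA2G6 exceeded PTGES in 24 and PLA2G4A exceeded PTGS2 in 24. The remaining neighbours changed places in some libraries, since PTGES3 exceeded PTGES2 in 19, PTGES2 exceeded PLA2G6 in 22, PTGES exceeded PTGS1 in 22 and PTGS1 exceeded PLA2G4A in 20. PTGS2 and PLA2G4A are neighbours on chromosome 9 with 126 kb between them. Precision differed too: PTGS2 rested on 14 to 37 counts, with a counting error of 21.6% that made up most of its coefficient of variation of 24.7%, whereas PTGES3 varied by 8.79% with a counting error of 3.92%.

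PTGDS was compared between the groups first. In AGA CON piglets it was between 156 and 199.6 CPM with a median of 177 CPM (177 ± 16.9, SD, n = 6). In SGA CON piglets it was between 136 and 196 CPM with a median of 159.6 CPM (160.4 ± 23.8). The AGA HF piglets ranged from 170.1 to 289 CPM with a median of 195 CPM (213 ± 43.5), and the SGA HF piglets from 148 to 187 CPM with a median of 166 CPM (167 ± 15.8). Every pair of groups overlapped. The AGA HF group was the widest, and its replicates 4 and 6, at 289 and 239.7 CPM, lay above all other libraries.

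On the HF diet the SGA piglet had less PTGDS than its AGA littermate in 6 of 6 litters. In replicates 1 to 3 the SGA level was 94.3%, 97.1% and 91.1% of the AGA level. In replicates 4 to 6 it was 59.9%, 80.8% and 61.6%. The 3 litters of cohort 1 thus differed little, and the 3 of cohort 2 differed more. On the CON diet the SGA piglet was lower in 4 of 6 litters, at 71.4%, 85.3% and 84.9% of the AGA level in replicates 1 to 3 and at 107.7%, 86.9% and 109.7% in replicates 4 to 6. Here the cohorts stood the other way, with all 3 litters of cohort 1 lower in SGA and 2 of 3 litters of cohort 2 higher. The median littermate difference in log2 CPM was -0.22 on CON and -0.22 on HF.

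**Figure D2:**
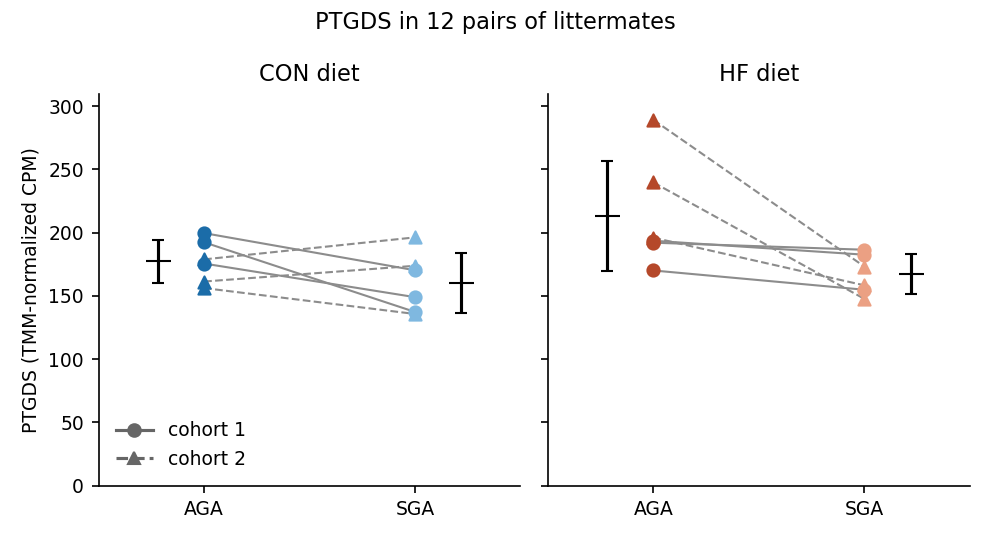
PTGDS level (TMM-normalized CPM) in the AGA and SGA piglets of each diet; lines join littermates, circles with solid lines are cohort 1, triangles with dashed lines are cohort 2, and the black marks give mean and SD (n = 6). All 6 HF lines fall, the steepest from the AGA HF piglets at 289 and 239.7 CPM, while 2 of the 6 CON lines rise.

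The comparison of SGA with AGA on CON contrasts no library that entered the difference that chose PTGDS. It is the only one in which the result for this gene is read as a test. Its surrogate variables and spread were estimated from all 24 libraries, including those on HF, so the test is not fully independent of that choice. The study's model terms were followed, with the 4 groups, sex and 5 surrogate variables in all 24 libraries and 7 contrasts adjusted together. The test was that of edgeR, where the study used limma voom. A gene was called at an FDR-adjusted p under 0.4. The study names this threshold for its heat map, as one wider than is usual. The PTGDS log2 fold change on CON was -0.22 (SE 0.079, 95% confidence interval -0.38 to -0.059). It did not pass the threshold (edgeR quasi-likelihood test, unadjusted p = 0.00999, Benjamini-Hochberg FDR-adjusted p = 0.585), in a contrast that called 0.129% of all genes. Leaving out SGA CON replicate 4 brought it just past the threshold, with a log2 fold change of -0.26 (edgeR FDR-adjusted p = 0.398), and leaving out AGA CON replicate 1 or SGA CON replicate 6 moved it the other way, to -0.15 (edgeR FDR-adjusted p = 0.816 and 0.729). It was also -0.15 with no surrogate variables (edgeR FDR-adjusted p = 0.921) and with litter as a block (edgeR FDR-adjusted p = 0.748). Within cohorts, fitted with groups and sex only, the log2 fold change was -0.32 in cohort 1 and 0.02 in cohort 2.

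The other PTGDS contrasts share libraries with the HF comparison and are descriptions. The fitted log2 differences were -0.34 (SE 0.080) for SGA against AGA on HF, -0.28 (SE 0.058) for SGA against AGA over both diets, and -0.11 (SE 0.108) for the size by diet interaction. For HF against CON they were 0.21 (SE 0.058) over both sizes, 0.27 (SE 0.080) in AGA and 0.15 (SE 0.078) in SGA piglets. On HF, the size difference was -0.10 in cohort 1 and -0.60 in cohort 2, and the interaction was 0.22 in cohort 1 and -0.62 in cohort 2. Without the library high in pituitary markers the size difference on HF was -0.32. One of the 8 genes tested was called for size on HF and 1 for size over both diets, PTGDS in each case, in contrasts that called 0.288% and 0.478% of all genes. Since the choice of PTGDS used the former contrast and the latter contains its libraries, nothing is read from those counts.

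Markers of cell types, among them cells known to make PTGDS, and immediate early genes were summed in each library from fixed lists. Since the tissue was sequenced in bulk, fewer cells of a type and less RNA per cell cannot be told apart. The 12 markers of meningeal fibroblasts, led by OGN, COL3A1 and FMOD, were all detected, and 11 had a mean of at least 1 CPM. Their sum ranged from 209 to 337 CPM in AGA CON, 203 to 355 in SGA CON, 187 to 388 in AGA HF and 198 to 365 in SGA HF. The AGA HF libraries with the highest PTGDS, replicates 4 and 6, also had the highest meningeal sums of their group, 369.8 and 388 CPM. In AGA CON, SGA CON and SGA HF the library with the highest meningeal sum, replicates 2, 6 and 2 with 337, 355 and 365 CPM, was also the one with the most PTGDS. This was not particular to the meningeal list. The library with the highest microglial sum had the most PTGDS in AGA CON, SGA CON and AGA HF, but not in SGA HF. That with the highest endothelial sum had the most in AGA CON, AGA HF and SGA HF, but not in SGA CON.

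Littermate differences in the meningeal sum stood close to those of PTGDS in the second HF cohort. In HF replicates 4, 5 and 6 the SGA minus AGA difference in log2 meningeal sum was -0.70, -0.29 and -0.58, and that of PTGDS was -0.74, -0.31 and -0.70. In the first HF cohort they did not go together, with 0.38, 0.97 and -0.11 for the meningeal sum and -0.08, -0.04 and -0.14 for PTGDS. The sum was lower in the SGA littermate in 4 of 6 HF and 3 of 6 CON litters, and it moved in the same direction as PTGDS in 4 of 6 HF and 5 of 6 CON litters. In the fit, 10 of 11 meningeal markers tested had a log2 fold change below 0 for size (median -0.14) and 3 of 11 for diet (median 0.22). An unadjusted edgeR p under 0.05 was reached by 1 for size and 3 for diet, against 10.6% and 7.09% of all genes. None was called, in contrasts that called 0.478% and 0.159% of all genes. The microglial and the oligodendrocyte sums each moved in the direction of PTGDS in 5 of 6 HF and 4 of 6 CON litters. Over the 24 libraries, which include littermates and so are not independent, Pearson's r between PTGDS and the meningeal sum in log2 CPM was 0.65 (Spearman's rho 0.58), the highest r of the 11 lists summed, and 0.46 without the 2 libraries farthest from the median sum. With group means subtracted it was 0.75, against 0.52 for the microglial and 0.47 for the astrocyte sum. The lowest r of the 11 lists was that of the hippocampal neuron sum, -0.60 (Spearman's rho -0.38). It was -0.44 with group means subtracted. Without the 2 libraries farthest from its median sum it was -0.43, and the immediate early gene sum was then lower, at -0.45. The part of meningeal tissue in the PTGDS differences was not tested.

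**Figure D3:**
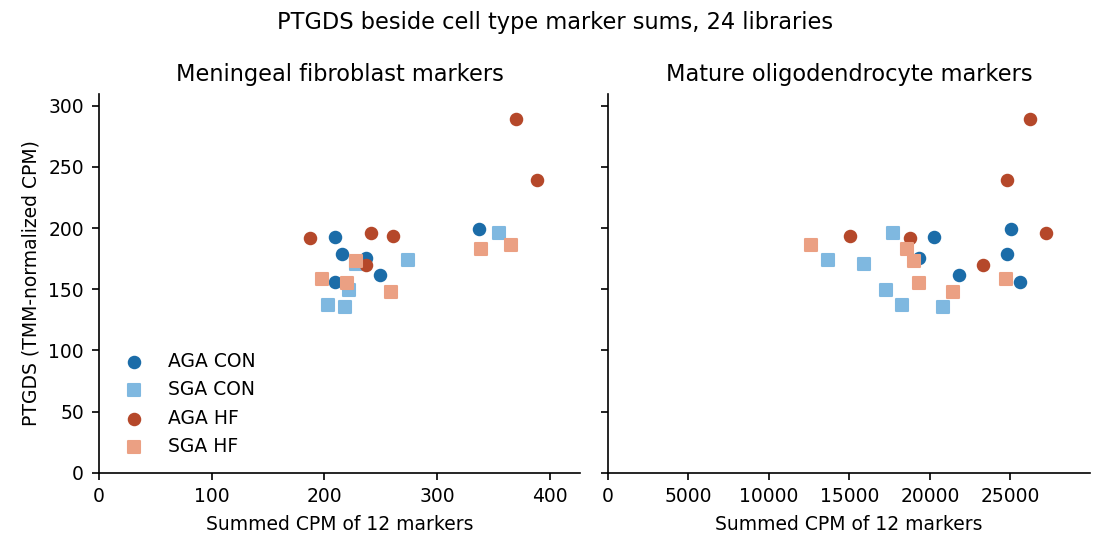
PTGDS level (TMM-normalized CPM) against the summed CPM of 12 meningeal fibroblast markers (left) and 12 mature oligodendrocyte markers (right), with 1 point per library, colored by group; circles are AGA and squares SGA. The AGA HF points at 289 and 239.7 CPM lie at the upper right of both panels.

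Summed markers of oligodendrocytes were lower in most SGA littermates, although no single marker was called. All 12 markers of mature oligodendrocytes had a mean of at least 1 CPM, with the myelin genes MBP and MOBP the most abundant. Their sum ranged from 19302 to 25590 CPM in AGA CON, 13670 to 20814 in SGA CON, 15019 to 27208 in AGA HF and 12585 to 24705 in SGA HF. It was lower in the SGA littermate in 6 of 6 CON litters (median log2 difference -0.39) and in 5 of 6 HF litters (median -0.24). In the fit, 11 of 12 markers had a log2 fold change below 0 for size, 4 had an unadjusted p under 0.05, and none was called (smallest edgeR FDR-adjusted p = 0.609). The neuron markers went the other way: their sum was higher in the SGA littermate in 4 of 6 CON litters (median log2 difference 0.07) and 4 of 6 HF litters (median 0.14). In the fit for size 6 of 7 neuron markers had a log2 fold change above 0, 4 had an unadjusted p under 0.05, and 1 was called, CAMK2A, named after its values were seen (0.13, edgeR FDR-adjusted p = 0.308). Of all genes tested, 10.6% reached this unadjusted p for size and 0.478% were called. The astrocyte sum was lower in the SGA littermate in 6 of 6 CON litters (median log2 difference -0.13) and in 1 of 6 HF litters (median 0.03). In the fit 8 of 8 astrocyte markers were below 0 for size on CON and 4 of 8 on HF, and none was called. Across libraries the oligodendrocyte sum followed PTGDS only loosely, with r = 0.21, and -0.10 with group means subtracted.

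The choroid plexus list was low. Of 9 matched markers 4 had a mean of at least 1 CPM, none was at 0 in every library, and ENPP2, which oligodendrocytes also express, made up most of the sum of 191 to 406 CPM. The sum ranged from 241 to 382 CPM in AGA CON, 191 to 357 in SGA CON, 218 to 406 in AGA HF and 192 to 337 in SGA HF. TTR, the transthyretin gene that defines this epithelium, was between 1.65 and 146 CPM and highest in an SGA CON library. The list was lower in the SGA littermate in 4 of 6 CON and 5 of 6 HF litters and went in the direction of PTGDS in 2 and 5 of them. The part of oligodendrocytes, neurons, astrocytes and choroid plexus in the PTGDS differences was not tested either.

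By the rule of likeness fixed for this gene, the 5 genes whose log2 CPM followed PTGDS most closely over the 24 libraries were HSD17B14 (r = 0.79), B3GNTL1 (r = 0.77), ADPRM (r = 0.75), SELENBP1 (r = 0.71) and CTSK (r = 0.71), out of 12362 genes with a symbol. HSD17B14 is a steroid and fatty acid dehydrogenase and CTSK the protease cathepsin K, which degrades collagen. The values share libraries and litters and are a description. With group means subtracted none of these remained among the first 5, which were then GLIS2, LTBP4, TP53I11, IGFBP2 and BCAM with r between 0.83 and 0.88.

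Of the phospholipases, PLA2G4A differed most between the diets in how littermates compared. Its level was between 3.22 and 7.32 CPM in AGA CON (median 4.46), 4.62 and 7.56 in SGA CON (median 5.54), 4.80 and 6.98 in AGA HF (median 6.76) and 3.52 and 6.58 in SGA HF (median 4.70). The groups overlapped, with 4 of 6 SGA HF libraries below every AGA HF library. On HF the SGA piglet was lower in 6 of 6 litters, by a log2 difference of -0.89 to -0.02, and on CON it was higher in 5 of 6, with a range of -0.64 to 1.17. The fitted interaction was -0.40 (SE 0.216, 95% confidence interval -0.85 to 0.05) and was not called (edgeR quasi-likelihood unadjusted p = 0.0786, FDR-adjusted p = 0.772). At 23 to 54 counts per library its counting error was 15.8% beside a coefficient of variation of 22.9%.

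PLA2G6 was higher in the SGA littermate in 5 of 6 CON litters (median log2 difference 0.20) and in 3 of 6 HF litters (median -0.01), and its interaction in the fit was -0.09 (SE 0.108, 95% confidence interval -0.31 to 0.14). It was between 76.8 and 101.1 CPM in AGA CON, 87.8 and 157 in SGA CON, 71.2 and 110.2 in AGA HF and 73.8 and 113 in SGA HF. Medians were 89.9, 94.1, 89.5 and 85.7 CPM in that order, and SGA CON replicate 6, at 157 CPM, stood above the rest. Its log2 fold change for size was 0.05 (SE 0.058, 95% confidence interval -0.07 to 0.17) and for diet -0.01 (SE 0.058, 95% confidence interval -0.13 to 0.11).

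The cyclooxygenases did not pass the test in any contrast. PTGS1, which the brain expresses largely in microglia, had medians of 7.36 CPM in AGA CON (4.20 to 13.2), 6.39 in SGA CON (3.45 to 9.85), 7.30 in AGA HF (3.79 to 12.9) and 8.08 in SGA HF (4.64 to 9.27). Its SGA littermates were lower in 3 of 6 CON and 2 of 6 HF litters. Microglial markers, led by C1QC, C1QA and CX3CR1, with 9 of 10 at a mean of at least 1 CPM, summed to 114.5 to 362 CPM. PTGS2, an immediate early gene in neurons, had medians of 2.22 CPM in AGA CON (2.10 to 3.11), 3.23 in SGA CON (2.31 to 3.78), 3.09 in AGA HF (1.90 to 3.75) and 2.70 in SGA HF (2.13 to 4.77).

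The SGA littermate had more PTGS2 in 5 of 6 CON and 4 of 6 HF litters, but the fitted log2 fold change for size was 0.13 (SE 0.158) and its 95% confidence interval, -0.20 to 0.46, included 0. The sum of 10 matched immediate early genes, led by JUNB, EGR1 and EGR4, was higher in the SGA littermate in 5 of 6 litters on each diet. The genes most like PTGS2 over the libraries were TCEAL2, PRKCI and UTP15, each with r = 0.70. None could be named for HPGDS, which had no reads.

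**Figure D4:**
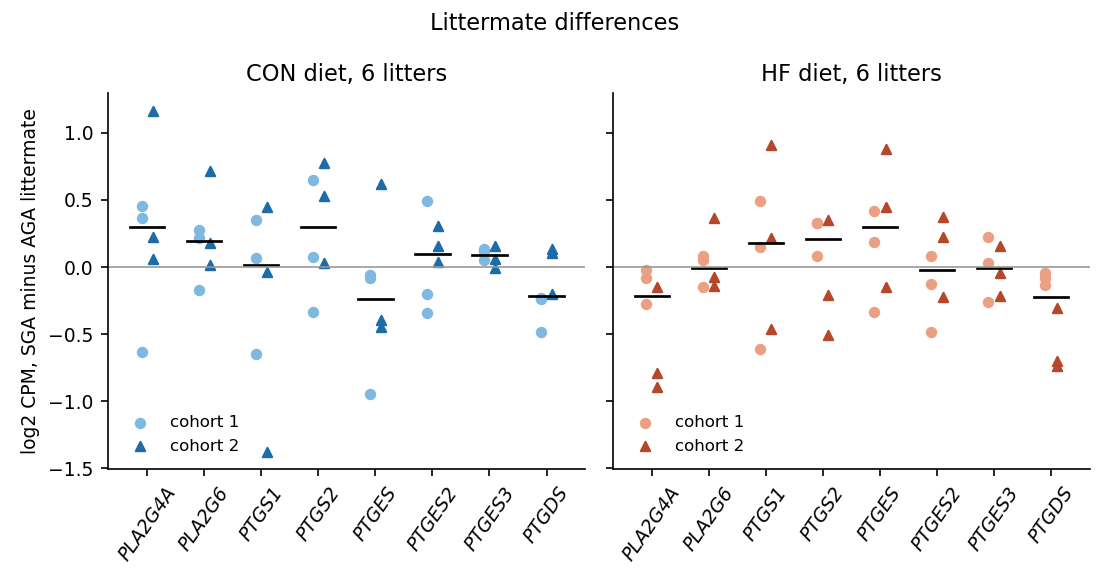
Difference in log2 CPM between the SGA and the AGA littermate for the 8 detected genes on CON (left) and HF (right), with 1 point per litter, circles for cohort 1, triangles for cohort 2 and a black line at the median of 6 litters. PTGDS and PLA2G4A have all 6 HF litters below 0; no gene has all 6 CON litters on one side.

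PTGES3 and PTGES2 had the lowest coefficients of variation of the set. PTGES3 had medians of 83.7, 86.6, 85.6 and 85.2 CPM in AGA CON, SGA CON, AGA HF and SGA HF, within an overall range of 75.7 to 104.7 CPM. Its log2 fold change was 0.07 for size (SE 0.053, 95% confidence interval -0.04 to 0.18) and -0.04 for diet (SE 0.054, interval -0.15 to 0.07). PTGES2 had medians of 80.3, 77.3, 74.1 and 72.3 CPM in the same order, and HF exceeded CON by 0.10 in the fit (SE 0.051, interval -0.004 to 0.21), which was not called (edgeR quasi-likelihood unadjusted p = 0.0586, FDR-adjusted p = 0.747). The fitted difference and the order of the group medians had opposite signs for PTGES2.

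PTGES was less precise. Its medians were 5.44 CPM in AGA CON (4.64 to 7.68), 4.57 in SGA CON (2.90 to 7.88), 4.76 in AGA HF (3.41 to 7.28) and 5.42 in SGA HF (4.81 to 6.94). The SGA littermate was lower in 5 of 6 CON litters and higher in 4 of 6 HF litters. The fitted interaction was 0.42 (SE 0.314) with a 95% confidence interval of -0.23 to 1.08.

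Over the 7 contrasts no gene of the set other than PTGDS was called. The contrasts for diet, interaction, diet in AGA and diet in SGA called 0.159%, 0.049%, 0.0674% and 0.0919% of all genes. At an unadjusted p under 0.05, which 10.6% of all genes reached for size and 7.09% for diet (4.01% for the interaction), none of the 7 detected genes other than PTGDS did in these contrasts. The median log2 fold change of the 8 genes was 0.03 for size and 0.09 for diet, against -0.002 and 0.002 over all genes tested.

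**Figure D5:**
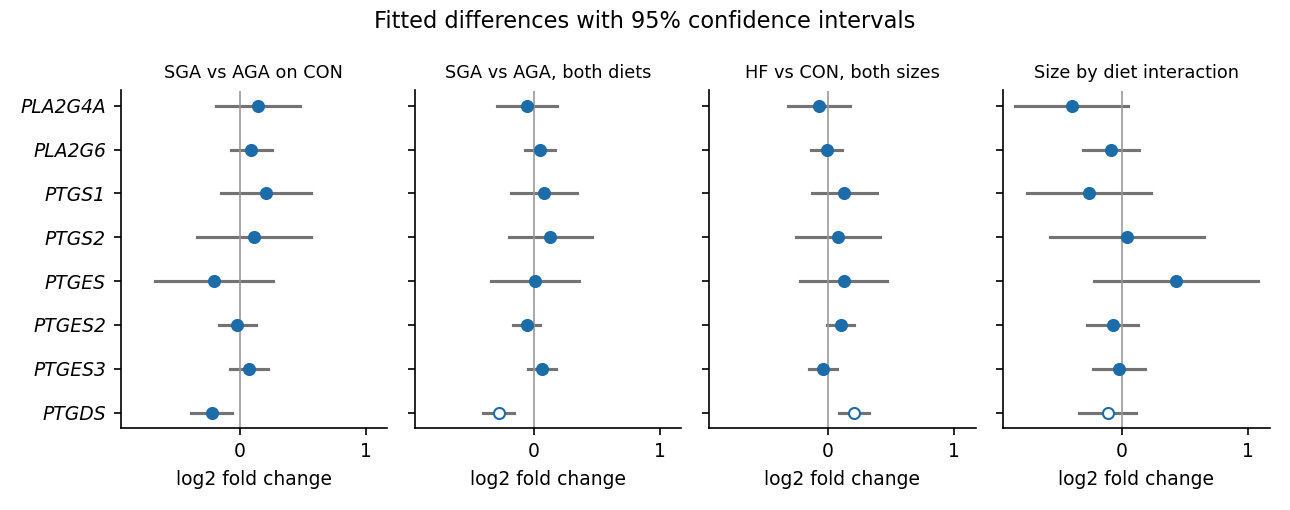
Fitted log2 fold changes (points) with 95% confidence intervals (lines) of the 8 genes tested, for SGA against AGA on CON, SGA against AGA over both diets, HF against CON over both sizes, and the size by diet interaction; open points mark PTGDS where its libraries overlap those that chose it. Apart from PTGDS every interval includes 0, and the widest belong to the genes with few counts.

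The rest of the pathway was read from lists of 55 related genes, of which 47 were in the files and 37 passed the filter on low counts. None was called in any of the 7 contrasts. At an unadjusted p under 0.05 there were 3 for size, 2 for diet and 3 for the interaction, where 10.6%, 7.09% and 4.01% of all genes reached it. Of the genes that release arachidonic acid 10 of 15 passed the filter, of the other prostanoid synthases 4 of 6, of the receptors 8 of 10, of the enzymes and carriers of breakdown and transport 6 of 6, and of the lipoxygenase and leukotriene genes 9 of 10.

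DAGLA, which makes the endocannabinoid 2-arachidonoylglycerol, came nearest to a call. It was between 200.4 and 305 CPM in AGA CON (median 265), 259 and 408 in SGA CON (median 282), 204 and 255 in AGA HF (median 229) and 245 and 294 in SGA HF (median 269). The groups overlapped on both diets. Its log2 fold change for size was 0.17 (SE 0.047, 95% confidence interval 0.07 to 0.27), with an edgeR quasi-likelihood unadjusted p = 0.00181 and FDR-adjusted p = 0.457. On HF alone the log2 fold change was 0.24 (SE 0.066, 95% confidence interval 0.10 to 0.37), with an edgeR unadjusted p = 0.00151 and FDR-adjusted p = 0.429. With the litter as a fixed block DAGLA passed the threshold for size, and the count of pathway genes called rose from 0 to 1, whereas with the litter as a random block in voom the count stayed at 0.

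PTGER2, a receptor for prostaglandin E that raises cyclic AMP, had the widest fitted differences, at a level near the floor. It had 0 to 18 counts per library, with medians of 0.262 and 1.02 CPM in AGA piglets on CON and HF and of 0.877 and 0.451 CPM in SGA piglets. The fitted interaction was -2.37 (SE 0.698, edgeR quasi-likelihood unadjusted p = 0.00262, FDR-adjusted p = 0.485) and HF against CON in AGA piglets 1.63 (SE 0.523, edgeR unadjusted p = 0.00513, FDR-adjusted p = 0.538). Both values rest on groups at or below 3 counts in several libraries, and PTGER2 overlaps the annotated interval of PTGDR on the same strand, so reads of the pair are not securely divided.

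The receptors were low throughout. The most abundant entry of the receptor list per kilobase was PTGFRN, an inhibitor of the prostaglandin F receptor rather than a receptor itself, with a median of 2.03 RPKM. It was followed by PTGDR2, a receptor for prostaglandin D, with 1.72 RPKM and 5.29 to 15.4 CPM, while PTGDR, the other receptor for this product of PTGDS, had at most 0.981 CPM and did not pass the filter. The log2 fold change of PTGDR2 for size was 0.003 (95% confidence interval -0.23 to 0.24). HPGD, the enzyme that begins the breakdown of prostaglandins, was between 1.17 and 4.73 CPM with a median of 2.30 CPM, and its log2 fold change for size was 0.34 (SE 0.243, 95% confidence interval -0.16 to 0.85).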

How the data were processed

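RNA was poly(A)-selected, made into stranded single-end libraries and run on 1 lane. The study reports a reduced average RNA quality number, which it ascribes to pre-spliced RNA. How RNA quality bears on the levels per kilobase was not tested. Per the labels and the study's methods, the authors trimmed reads with Trimmomatic 0.33, aligned them to Sscrofa10.2 (annotation release 105) with STAR 2.5.2a and counted exon reads by strand with featureCounts (Subread 1.5.0). They deposited raw counts, without normalization. One entry without an identifier (0.613 to 1.62% of reads) was left out. Names came from an Sscrofa11.1 table, matched by gene ID (23036 matched, 15993 with a symbol); coordinates are those of the files.

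The 16326 genes that reached 1 CPM in 3 or more libraries were normalized by TMM and tested with edgeR 4.0.16 (glmQLFit, glmQLFTest; R 4.3.3) on group, sex and 5 surrogate variables (sva 3.50.0, prior count 2), with Benjamini-Hochberg adjustment over 7 contrasts together. limma 3.58.1 and DESeq2 1.42.0 served for alternatives. The fit was tested on simulated data. Littermates share a pair label, and their deviations from group means correlated with a mean r of 0.154 (12 pairs). For AGA and SGA piglets of the same diet and cohort but different litters it was 0.0314 (24 pairs).

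The members and lists were chosen with earlier results of these data known. Named were all members; other pathway genes if called, with an unadjusted p under 0.01 outside size on HF, or the most abundant receptor or HPGD; the genes most like PTGDS (5), PTGS2 and HPGDS (3 each); and marker lists by sum. Sums ranged over 2.58 to 17.7 CPM for perivascular macrophages, 19.9 to 49.7 for mast cells, 155 to 319 for endothelium and 11339 to 16321 for astrocytes. Alternatives changed the normalization, filter, terms, adjustment, tool, pairing, cohort and libraries.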

Additional observations from a re-analysis of the deposited data

Results flagged for a closer look

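Among the 32 combinations of gene and group checked for a single library standing apart from the other 5, 3 did so by Dixon's criterion, which chance alone meets in about 1 in 20 groups. PTGES3 was 104.71 CPM in SGA HF replicate 3, against 79.0 to 87.4 CPM in the other SGA HF libraries. PLA2G4A was 7.32 CPM in AGA CON replicate 3, against 3.22 to 4.76 CPM in the rest of its group, a gap of 0.62536 of the range that only just exceeded the critical value of 0.625. PLA2G6 was 157 CPM (156.98) in SGA CON replicate 6, against 87.8 to 102.3 CPM in the others. The high PTGDS values of AGA HF replicates 4 and 6 lay too near each other to meet this criterion.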

How the results depend on the processing

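Calls of members under the settings below were of PTGDS, and for size, size on HF, diet and diet in AGA they use libraries that chose this gene, so they are a description from which nothing is read. For size the count of members called was 1 and went to 0 with no surrogate variables, with cohort in their place, in cohort 1 alone, in cohort 2 alone and with litter as a random replicate block in voom; leaving out single libraries gave 0 to 1, with 0 without AGA CON replicate 1 and SGA HF replicate 5. For size on HF it went from 1 to 0 under the same settings and with a filter of 1 CPM in 6 libraries. There leaving out a library gave 0 to 1, with 0 without AGA CON replicate 1, AGA HF replicates 5 and 6, SGA CON replicate 5 and SGA HF replicates 4, 5 and 6, while the PTGDS difference stayed between -0.38 and -0.26. For diet the count rose from 0 to 1 with no filter, with the DESeq2 Wald test and with TMM factors from all listed genes (chosen after seeing the data), and for diet in AGA it rose to 1 with DESeq2; leaving out a library gave 0 to 1 in both, with 1 in both without AGA CON replicate 2, AGA HF replicate 3, SGA HF replicate 3, SGA CON replicate 4 or SGA CON replicate 6, and in diet in AGA also without AGA HF replicate 2. For size on CON it was 0 to 1. PTGDS reversed its sign for the interaction in cohort 1 (0.2193), for size on CON in cohort 2 (0.0211), for diet in AGA in cohort 1 (-0.0199) and for diet in SGA in cohort 2 (-0.0747, against 0.15). The cause was not tested.

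The 37 pathway genes gave 0 calls, and 2 with no filter, 2 with TMM factors from all listed genes, 2 with DESeq2, 3 with FDR within each contrast and 1 with litter as a replicate block; leaving out single libraries gave 0 to 7, the most without AGA CON replicate 2. DAGLA was among the calls under each of those alternatives. Under the replicate block by litter the PTGDS log2 fold change was -0.24 for size, -0.15 for size on CON, -0.34 for size on HF and -0.18 for the interaction. In these contrasts the block changed no call of a member. Over all genes the number called for size ranged from 0 to 1200 over 13 alternatives, against 78. For size on HF it ranged from 0 to 235, against 47, and for diet from 0 to 88, against 26. The pathway counts were not compared with the share of all genes called under the same setting, so nothing is read from them. Depth limits PTGS2, PLA2G4A, PTGES and the receptors, where counting error is a large part of the spread.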

Other observations

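Genes of the neighbouring lipoxygenase branch were partly more abundant than the cyclooxygenases per kilobase of exon. ALOX5AP, the partner protein of 5-lipoxygenase, had a median of 26.7 RPKM, LTA4H, which makes leukotriene B, 18.8 RPKM, ALOX15, which oxygenates arachidonic and linoleic acid, 11.3 RPKM, and LTC4S, which makes leukotriene C, 9.36 RPKM, against 2.79 RPKM for PTGS1. ALOX5 itself had a median of 1.32 RPKM. No gene of this list was called in any contrast, and its smallest edgeR FDR-adjusted p was 0.652, for size. Among the enzymes that release arachidonic acid or its endocannabinoid precursors, MGLL, which hydrolyzes 2-arachidonoylglycerol, had the highest median at 79.1 RPKM.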
